A study of Homo sapiens with 44 samples.

Results

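Chromatin accessibility after interferon gamma (IFNγ), the defining cytokine of type 1 immunity, was compared directly with accessibility after interleukin 13 (IL-13), a cytokine of type 2 immunity, in Ccd18-Co, an established fibroblast line from human colon. The comparison set the 4 libraries of cells given IFNγ against the 4 libraries of cells given IL-13, each at 10 ng/ml, over every peak of the deposited table, of which 407174 of 407383 were tested. The 8 libraries belong to a series of 44 in 11 groups of 4, of which 1 group was left unstimulated and each of the others received a single cytokine. Per the study's methods the cells were deprived of serum and then stimulated in serum-free medium for a day. That passage does not list IL-13 among its cytokines. The paper's results do name it among those given to this line for a day before ATAC-seq. Per the labels all stimulation was in serum-free medium. All libraries come from a single line, and the labels do not say whether the 4 replicates of a group were separate cultures, so p-values measure the spread between these samples. Accessibility was measured by ATAC-seq, in which a transposase cuts open DNA and adds sequencing adaptors, and is given as read coverage of a peak of 500 bases per Mb of the library's total coverage over all peaks.

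IFNγ binds the receptor made of IFNGR1 and IFNGR2, whose kinases are JAK1 and JAK2. The signal induces IRF1, which with other interferon regulatory factors binds interferon-stimulated response elements (ISRE). IL-13 binds the receptor made of IL13RA1 and IL4R and activates STAT6, whose sites hold TTC and GAA set 4 bases apart. In fibroblasts IFNγ is known for antigen presentation and antiviral genes, and IL-13 for eotaxins and matrix genes. AP-1 is the FOS and JUN family of factors that holds open many enhancers of fibroblasts, and the CArG box is the site of serum response factor, which drives contractile genes.

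The following stretches of 120 bases from called peaks (adjusted p under 0.05, as counted below) show these motifs in their setting (hg38, plus strand). The first pair are peaks higher with IFNγ in which the unstimulated level lay close to that of IL-13, with the ISRE in capitals, at chr1:89274416-89274535 and chr1:212635343-212635462.
GBP5 upstream peak: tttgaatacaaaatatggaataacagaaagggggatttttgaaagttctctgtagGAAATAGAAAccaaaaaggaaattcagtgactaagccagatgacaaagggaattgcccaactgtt
FAM71A downstream peak: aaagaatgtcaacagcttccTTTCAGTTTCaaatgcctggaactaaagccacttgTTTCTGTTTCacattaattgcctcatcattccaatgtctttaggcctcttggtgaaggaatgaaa
The next pair are peaks higher with IL-13 in which the unstimulated level lay close to that of IFNγ, with TTC and GAA spaced by 4 bases (the STAT6 spacing) in capitals, at chr4:184547452-184547571 and chr12:89179313-89179432.
IRF2 distal peak: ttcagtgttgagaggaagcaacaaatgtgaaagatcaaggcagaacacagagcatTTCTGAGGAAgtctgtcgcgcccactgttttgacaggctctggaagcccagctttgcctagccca
LINC02458 intronic peak: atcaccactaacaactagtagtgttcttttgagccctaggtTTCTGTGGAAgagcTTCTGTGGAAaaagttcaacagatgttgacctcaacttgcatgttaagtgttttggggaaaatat
The next pair are peaks higher with IFNγ in which the unstimulated level lay close to that of IFNγ, with the AP-1 motif in capitals, at chr1:218874342-218874461 and chr1:186679456-186679575.
LYPLAL1 distal peak: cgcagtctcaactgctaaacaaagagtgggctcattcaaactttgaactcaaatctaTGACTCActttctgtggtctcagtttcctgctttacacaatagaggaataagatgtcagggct
PTGS2 intronic peak: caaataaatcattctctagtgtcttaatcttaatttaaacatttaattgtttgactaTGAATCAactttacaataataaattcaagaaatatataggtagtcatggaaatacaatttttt
The last is a peak higher with IL-13 at TPM1, a gene of the contractile apparatus, with the CArG box in capitals, at chr15:63051507-63051626.
TPM1 intronic peak: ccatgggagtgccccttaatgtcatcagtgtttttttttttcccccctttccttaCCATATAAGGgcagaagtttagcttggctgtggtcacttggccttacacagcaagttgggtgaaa

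Total coverage was 489 ± 113 Mb in IFNγ libraries and 401 ± 180 Mb in IL-13 libraries (mean ± SD, n = 4 each; difference of means, exact permutation test, two-sided, p = 0.40, where 4 against 4 allows no p below 0.0286). Peaks without any coverage made up 6.27 ± 2.07% and 11.1 ± 5.37% (n = 4 each, exact permutation p = 0.14), so shallow peaks are known less well after IL-13. IL-13 replicate 2 was the shallowest of the 8, with 240 Mb, and stood apart on the second principal component of the 5000 most variable peaks, at -59.8 against 13.7 to 29.9 for the other IL-13 libraries. The first component held 63.5% of the variance of these peaks, which were picked for their spread over the same 8 libraries, and separated the cytokines. Over all tested peaks the correlations of libraries overlapped. Pearson's r was 0.81 to 0.89 for pairs of the same cytokine and 0.79 to 0.89 for pairs of different cytokines. The line's fibroblast label held against its markers. The 12 fibroblast promoter peaks summed to between 188 and 239 per Mb across the 8 libraries, while those of leukocyte markers (2 of 6 with a promoter peak, PTPRC without) summed to at most 3.40 and of epithelial markers (2 of 6, CDH1 without) to at most 1.82. The 4 glial and 5 endothelial marker peaks summed to at most 3.09 and 6.97. Smooth muscle markers summed to 36.4 to 43.1 with IFNγ and 51.6 to 61.4 with IL-13, most of it from LMOD1. DES averaged 1.29 and 0.74 per Mb and MYH11 averaged 1.47 and 2.61. Fewer open cells and less accessibility per cell cannot be told apart in bulk libraries.

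In the direct comparison 16109 of 407174 peaks (3.96%) differed at an adjusted p under 0.05 (limma, Benjamini-Hochberg). Of these 11048 were higher with IFNγ (2.71% of those tested) and 5061 were higher with IL-13 (1.24%), a split of 68.6% to 31.4%. The direction was uneven by size as well. At a difference of at least 2-fold there were 7231 peaks higher with IFNγ and 2272 higher with IL-13, and the median log2 difference of the calls was 1.18 in the first direction and -0.95 in the second, beside 0.04 over all tested peaks. The 4 libraries of one cytokine lay wholly above the 4 of the other in 84.8% of the calls, while the same held for 8.31% of everything tested. Without IL-13 replicate 2 there were 8601 and 3966 peaks in the 2 directions.

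**Figure D1:**
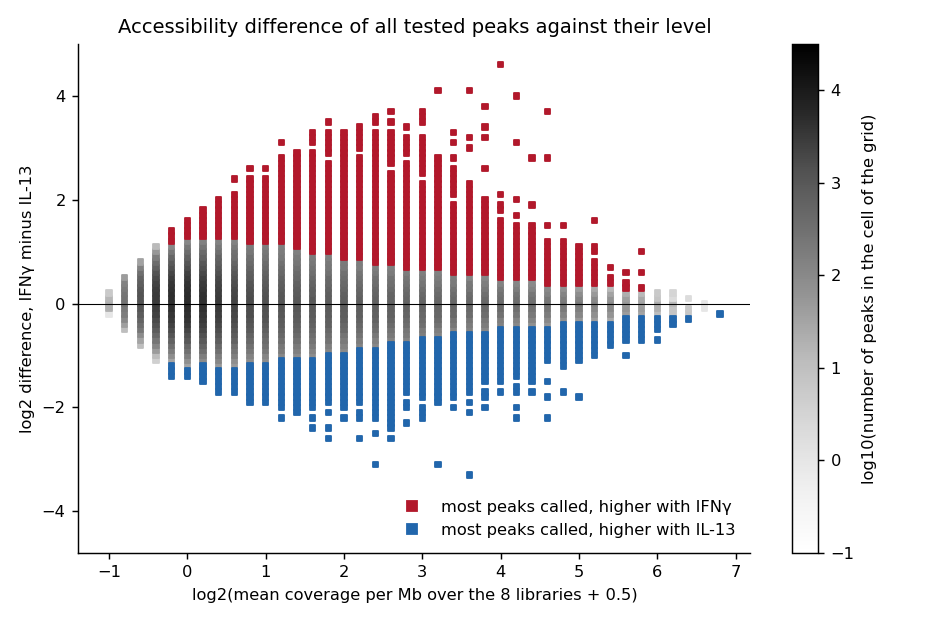
Each cell of the grid is a set of peaks, placed by the log2 of their mean coverage per Mb over the 8 libraries (horizontal) and by the log2 difference, IFNγ minus IL-13 (vertical), with grey shade for the number of peaks on a log10 scale. Cells in which most peaks were called are red above 0 and blue below 0, the red reach above 4 while the blue end near -3, and the difference needed for a call shrinks as the level rises.

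The peaks that differed most in favour of IFNγ were nearly closed with IL-13. At GBP5, which encodes a guanylate-binding GTPase of cell-autonomous defence, a peak at -1.71 kb from the start site (chr1:89274316-89274816, intergenic, deposited as promoter class) held 27.4, 28.9, 32.6 and 33.8 per Mb in the IFNγ libraries. The same peak held 0.23, 0.90, 1.09 and 1.29 in the IL-13 libraries and 0.69, 1.47, 2.36 and 2.48 in unstimulated libraries. IFNγ libraries thus lay apart from both other groups, which overlapped. The log2 difference was 4.57 ± 0.31 (SE, adjusted p = 1.31e-32), a 34.9-fold ratio of mean coverage.

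The promoter peak of CD74, the invariant chain of MHC class II, lay over an untranslated exon (chr5:150412640-150413140) and held 12.1, 13.8, 19.9 and 20.1 per Mb with IFNγ. With IL-13 it held 0, 0.33, 0.88 and 0.89, and in unstimulated libraries 0.35 to 1.15. The difference was 4.14 ± 0.38 on the log2 scale (SE, adjusted p = 1.13e-19). A distal peak named for FAR2, at -450 kb from that gene's start site (chr12:28698965-28699465), held 18.2 to 23.8 with IFNγ and 0.22 to 1.35 with IL-13. A peak in the IRF1 gene, 10.5 kb past the start site in an intron (chr5:132479995-132480495), held 22.9 to 28.1 with IFNγ and 0.13 to 2.67 with IL-13. The other members of the top 10 in this direction were named for LGALS17A, IPO7, HLA-E, RUFY4, FAM71A and SLC22A15, with log2 differences from 3.54 to 3.99. In all 10 the libraries of the cytokines did not overlap, as the rule for naming required, and the GBP5 and CD74 peaks were the 2 of promoter class.

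In the other direction the largest differences were smaller and none of the 10 was of promoter class. The leading peak was intergenic, at -73.0 kb from the start of IRF2, an interferon regulatory factor (chr4:184547311-184547811), and held 21.6, 21.9, 23.2 and 24.2 per Mb with IL-13. It held 1.20, 1.22, 2.56 and 2.69 with IFNγ and 1.07 to 2.03 in unstimulated libraries. IL-13 libraries thus lay apart from both other groups, which overlapped. Its log2 difference was -3.33 ± 0.32 (SE, adjusted p = 1.36e-17), an 11.9-fold ratio in favour of IL-13. An intronic peak of ELK3, a partner of serum response factor, 13.9 kb past the start site (chr12:96208047-96208547), held 4.48 to 4.84 with IL-13 and 0.18 to 1.03 with IFNγ.

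In 8 of the IL-13 top 10 the unstimulated libraries overlapped those of IFNγ, with 2 exceptions. At the intronic peak of DELEC1 whose deposited name is TNFSF8 (chr9:115017487-115017987), the unstimulated libraries held 1.28 to 2.01, between 5.04 to 6.97 with IL-13 and 0.18 to 0.84 with IFNγ. At LINC01048, 163 kb from the start of the periostin gene POSTN (chr13:37435790-37436290), they held 2.10 to 2.84, between 6.02 to 8.72 and 0.21 to 1.98. The other members were named for LINC02458, LINC01656, FTCD, ARHGAP5-AS1, GPRIN3 and TIAM2. Of the 10 peaks, 8 held TTC and GAA at the STAT6 spacing, beside 14.4% of all tested peaks. Of the 10 that led with IFNγ, 1 did and 4 held an ISRE, beside 9.11% of all tested peaks.

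**Figure D2:**
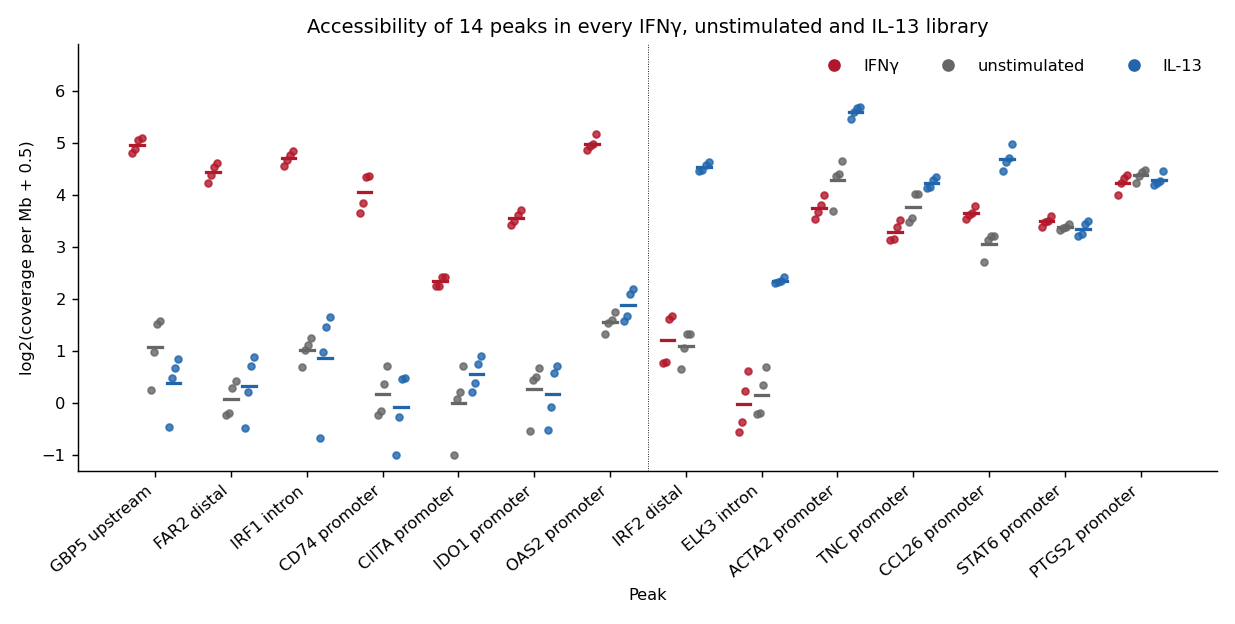
Points are single libraries (4 per group) and bars are group means on the log2(coverage per Mb + 0.5) scale for 14 peaks, in red for IFNγ, grey for unstimulated and blue for IL-13. Left of the dotted line IFNγ stands above both other groups, which lie together. Right of it IL-13 stands highest at IRF2, ELK3, ACTA2, TNC and CCL26, while the groups mix at the STAT6 and PTGS2 promoters.

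By the gene in the deposited peak name, called peaks were spread over 8034 names, and the loci with the most are described here. With IFNγ higher, the transcription factor IRF1 had the most, with 30 of its 76 peaks, reaching from -19.5 to 26.2 kb around the start site and none in the other direction. Over those 30 peaks the median log2 difference from unstimulated was 2.35 for IFNγ and 0.16 for IL-13. GBP5 had 15 of 20 and PHLDA1 13 of 115. At PHLDA1, a regulator of cell survival, the medians were 0.28 for IFNγ and -0.72 for IL-13 against unstimulated, so the gap there lay mostly below the unstimulated level.

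With IL-13 higher, the loci with the most called peaks were those of matrix and contractile genes. They were COL6A1, a chain of collagen VI (28 of 70), TPM1, tropomyosin (27 of 63), COL1A1, a chain of collagen I (19 of 29), TNC, tenascin C (18 of 72), and COL6A3 (17 of 142). The direction reversed at single peaks of COL6A1, TNC and COL6A3, 1 each. Relative to unstimulated cells, the called COL6A1 peaks had a median of 1.41 with IL-13 and -0.02 with IFNγ. At TPM1 the medians were 0.67 and -0.31, at COL1A1 0.60 and -0.33, and at TNC 1.06 and -0.28. The gap thus lay on the IL-13 side at COL6A1 and on both sides of the unstimulated level at TPM1 and COL1A1.

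By position alone, without the gene names, the 200 kb with the most peaks higher with IFNγ held 33 of 129 tested peaks around IRF1 (chromosome 5, 132298252 to 132497358). Next came 22 of 43 at the guanylate-binding protein cluster (chromosome 1, 89112796 to 89312196). A stretch of chromosome 14 (100297171 to 100375846) held 22 of 85, most of them deposited under the names WDR25 and SLC25A47. The called peaks named for WDR25 lay upstream of its start site, at -14.5 to -0.89 kb, so the deposited names need not mark the gene that holds them. Then followed 18 of 71 around B2M, the light chain of MHC class I, on chromosome 15, and 17 of 64 at the IFIT cluster on chromosome 10. The densest stretch higher with IL-13 held 50 of 109 at COL6A1, COL6A2 and FTCD (chromosome 21, 45972314 to 46140078). It was followed by 32 of 108 at COL1A1 and SGCA on chromosome 17, 30 of 80 at TPM1 and 27 of 117 at TNC. The fifth held 25 of 130 at CARMN, MIR145 and MIR143 on chromosome 5, a non-coding RNA and microRNAs known from smooth muscle. This ranking by position was added after values had been seen.

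PTGS2, which encodes the prostaglandin synthase COX-2, showed both ways in which a peak can come to be higher with IFNγ. Of its 24 peaks 11 were called, all higher with IFNγ, though its promoter peak was not (18.4 ± 2.21 with IFNγ and 19.1 ± 1.67 with IL-13, SD, n = 4 each, log2 difference -0.06 ± 0.13, SE, limma adjusted p = 0.92). Within 12 kb of the start site 9 of 10 tested peaks were called, with a median log2 difference from unstimulated of -0.03 with IFNγ and -1.33 with IL-13 (range -2.70 to -0.98). Farther away 2 of 14 were called, at 53.0 and 61.7 kb, with 1.91 and 1.99 for IFNγ and -0.05 and -0.71 for IL-13. The near peaks thus had lower estimates with IL-13 than in unstimulated cells, and the far pair had higher ones with IFNγ. Calls against unstimulated are not given for these peaks. The called near peaks were low, with averages over the 8 libraries from 1.26 to 5.20 per Mb. The PTGS2 peak printed above averaged 0.43 with IL-13, under the level of 3 reads (0.64).

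**Figure D3:**
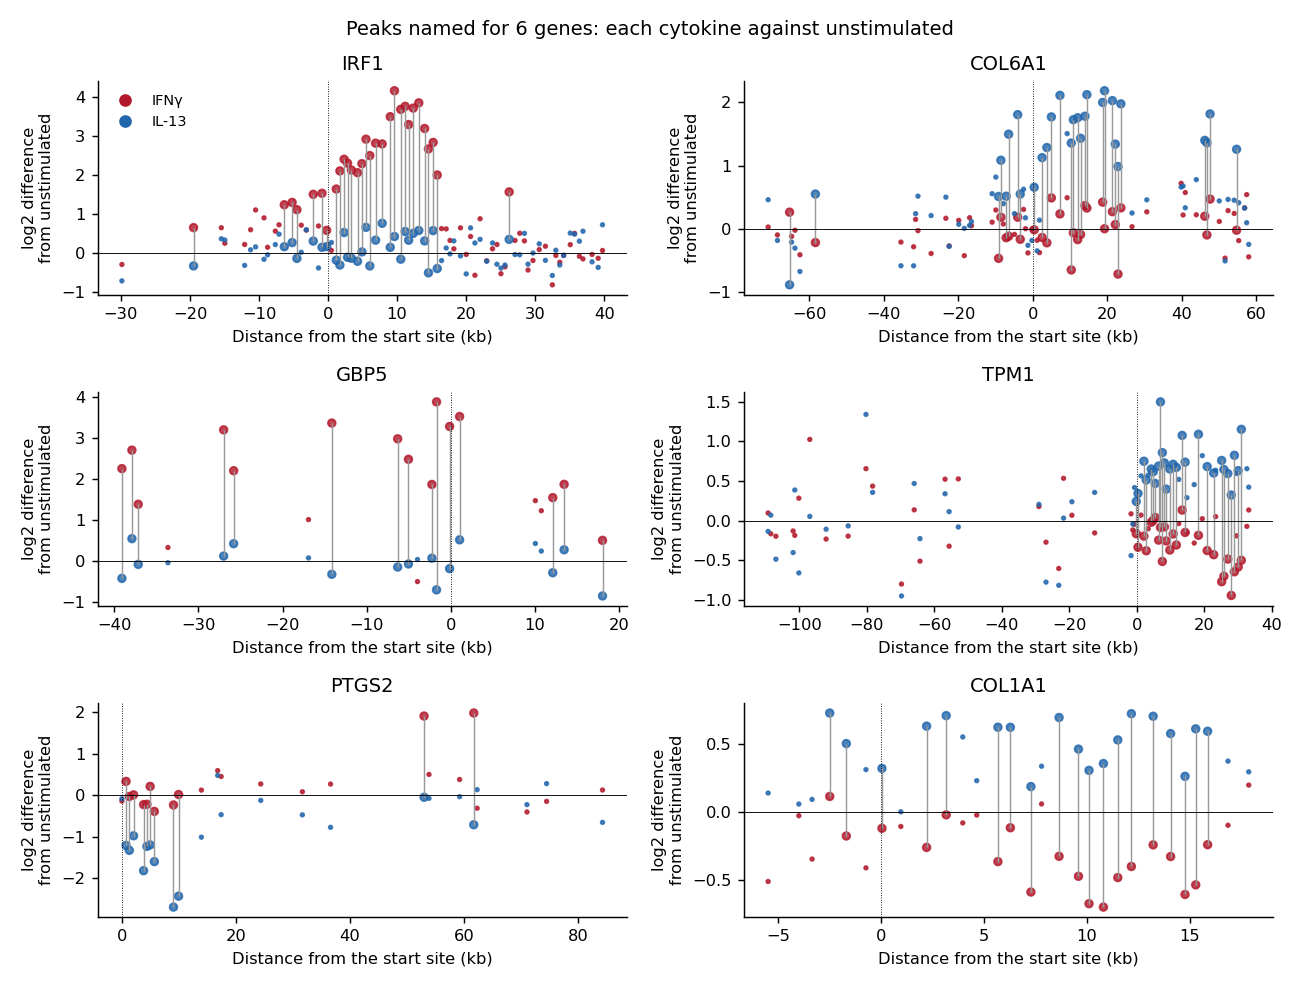
Every tested peak named for 6 genes is drawn by its distance from the start site in kb (horizontal) and its log2 difference from unstimulated (vertical), in red for IFNγ and blue for IL-13, with large points joined by a line where the cytokines were called different. IFNγ rises to 4.16 inside IRF1, IL-13 rises to 2.18 at COL6A1, the gap opens on both sides of 0 at TPM1 and COL1A1, and at PTGS2 the near gap opens downward for IL-13.

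Promoter peaks were then read for 11 gene lists, taking the tested peak nearest to each start site within 1 kb. Over all 29105 peaks classed as promoter, 1.97% were higher with IFNγ and 1.30% with IL-13, with a median log2 difference of 0.00. Reads from near-identical paralogs among the HLA, GBP and IFIT genes may be split or lost in alignment, so single members of these families are uncertain.

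Among the 14 genes of IFNγ signalling, 5 promoters were higher with IFNγ and none with IL-13 (median 0.27). They included IRF1, IRF2, IRF8 and IRF9. IRF8 had the largest difference of the list, 1.24 ± 0.31, but its call was lost without IL-13 replicate 4 (limma adjusted p = 0.057). The receptor genes IFNGR1 (-0.06 ± 0.15) and IFNGR2 (-0.33 ± 0.29), the kinases JAK1 (0.03 ± 0.17) and JAK2 (-0.30 ± 0.17) and STAT2 (0.01 ± 0.08) were not called.

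On the receiving side of IL-13, 1 of 10 promoters was called (median -0.01). Of the 219 peaks named for these genes 10 (4.57%) were higher with IFNγ and 7 (3.20%) with IL-13, beside 2.71% and 1.24% of all tested peaks. CISH, a feedback inhibitor of STAT signalling, was higher with IL-13 at -0.62 ± 0.19 (SE, limma adjusted p = 0.035), a call that was lost with the GC correction and without any 1 of 7 of the 8 libraries, at adjusted p from 0.051 to 0.11. STAT6 was 0.15 ± 0.18, IL4R 0.03 ± 0.16 and IL13RA1 -0.05 ± 0.17, none of them called. IL13RA2, the decoy receptor of IL-13, had no promoter peak, and 2 of the 15 peaks named for it were higher with IL-13. The chromatin of both receptors' genes thus showed little difference at the promoter.

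Antigen presentation genes moved toward IFNγ. For MHC class II, 11 of 15 promoters were higher with IFNγ and none with IL-13, with a median of 1.73, the highest of the 11 lists. After CD74 the largest were HLA-DRA at 2.90 ± 0.34 and HLA-DRB1 at 2.72 ± 0.28. CIITA, the master regulator of class II genes, held 4.26, 4.28, 4.83 and 4.89 per Mb at its promoter peak (chr16:10876839-10877339) with IFNγ, 0.66 to 1.37 with IL-13 and 0 to 1.13 unstimulated. Its difference was 1.78 ± 0.39 (SE, limma adjusted p = 0.00061), and the call was lost at a pseudocount of 0.1 (adjusted p = 0.059). For MHC class I, 10 of 17 were higher with IFNγ and none with IL-13 (median 0.45), led by the immunoproteasome subunits PSMB8 (1.46 ± 0.19) and PSMB9 (1.08 ± 0.21) and the peptidase ERAP2 (1.07 ± 0.28, lost without IFNγ replicate 2 at limma adjusted p = 0.053). The B2M promoter was already open in each group, at 35.0 per Mb with IFNγ and 33.4 with IL-13 (log2 difference 0.07 ± 0.11, not called), while 8 of the 13 peaks named for B2M were higher with IFNγ.

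Of 28 antiviral effectors 22 had a promoter higher with IFNγ and none had one higher with IL-13 (median 1.04). OAS2, which makes the activator of RNase L, led at 3.10 ± 0.25, with 28.6 to 35.3 per Mb against 2.47 to 4.06. The tetherin gene BST2 followed at 3.07 ± 0.32 and RSAD2, viperin, held 8.92 to 11.9 with IFNγ against 0.32 to 3.33 with IL-13. Of the 7 guanylate-binding protein promoters 5 were higher with IFNγ, led by GBP5 (3.46 ± 0.39), GBP4 (2.11 ± 0.38) and GBP2 (1.02 ± 0.18). Over all peaks named for that family, 48.0% were higher with IFNγ and 1.33% with IL-13. Among chemokines and checkpoints 9 of 17 were higher with IFNγ and none with IL-13 (median 0.67). They included IDO1, a tryptophan-degrading enzyme (3.39 ± 0.36), and the T cell attractants CXCL11 (2.51 ± 0.37) and CXCL10 (2.44 ± 0.32). CD274, which encodes PD-L1, held 23.6 to 31.6 with IFNγ and 10.3 to 17.8 with IL-13, while its neighbour PDCD1LG2, which encodes PD-L2, was at -0.03 ± 0.16 and not called.

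The type 2 list was far less one-sided. Of 18 promoters 2 were higher with IL-13 and none with IFNγ, and the median was 0.12. Over all 500 peaks named for these genes, 4.20% were higher with IFNγ and 2.40% with IL-13. Both shares lay above those of all tested peaks, 2.71% and 1.24%, which also lean to IFNγ. CCL26, eotaxin-3, held 21.4, 24.2, 25.7 and 31.0 per Mb at chr7:75772121-75772621 with IL-13, 11.1 to 13.4 with IFNγ and 6.03 to 8.75 unstimulated, so the 3 groups did not overlap and both cytokines lay above unstimulated. Its difference was -1.04 ± 0.19 (SE, limma adjusted p = 2.82e-05). CCL11, eotaxin-1, was at -0.90 ± 0.24 (SE, limma adjusted p = 0.0079), with libraries that overlapped, and its call was lost without IL-13 replicate 1, IFNγ replicate 1 or IFNγ replicate 4 (adjusted p = 0.054, 0.18 and 0.081). POSTN, periostin, held 2.29 to 4.18 with IL-13 and 0.82 to 1.07 with IFNγ, and missed the threshold (-1.18 ± 0.40, SE, limma adjusted p = 0.070). It passed in 6 of the alternatives tried. Many promoters of this list, among them CCL24, CCL17 and SERPINB2, held under 1 per Mb with either cytokine, so a difference at them was hardly detectable at this depth.

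Matrix and contractile genes moved toward IL-13 at the promoter in 6 of 22 cases and toward IFNγ in none (median -0.21). ACTA2, smooth muscle actin, had the largest difference of all listed promoters in this direction. Its peak (chr10:88952575-88953075, over introns of ACTA2 and STAMBPL1, deposited under the name ACTA2-AS1) held 43.2, 47.7, 50.3 and 50.9 per Mb with IL-13, 11.1 to 15.5 with IFNγ and 12.4 to 24.7 unstimulated. IL-13 libraries stood above both other groups, and the difference was -1.84 ± 0.14 (SE, limma adjusted p = 6.95e-26). TNC held 17.0 to 19.9 with IL-13 and 8.33 to 10.9 with IFNγ (-0.94 ± 0.16), and CNN1, calponin, was at -0.81 ± 0.18. TAGLN (-0.68 ± 0.08), COL3A1 (-0.71 ± 0.19) and COL1A1 (-0.44 ± 0.12) were also called. Over all peaks named for the 22 genes, 10.0% were higher with IL-13 and 2.21% with IFNγ. Of the 4 smooth muscle marker promoters given above, 2 (LMOD1 and SYNPO2) were also higher with IL-13, while DES and MYH11 were not called. Their part in this result was not tested.

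Among the 23 inflammatory fibroblast genes 4 promoters were higher with IFNγ and none with IL-13 (median 0.04). At MMP3, stromelysin, IFNγ libraries held 3.71 to 6.96, unstimulated 4.89 to 5.89 and IL-13 libraries 0.74 to 2.95, so IL-13 was the group that stood apart. The others were CXCL8 (1.15 ± 0.30), CSF3 (1.13 ± 0.32) and MMP1 (0.73 ± 0.21), and the CSF3 call was lost in 5 alternatives, among them those without IL-13 replicate 2 or 3 or IFNγ replicate 2 or 4 (limma adjusted p = 0.061, 0.13, 0.10 and 0.16). Over all peaks named for these genes, 7.33% were higher with IFNγ and 0.99% with IL-13. Of 12 AP-1 factor promoters 1 was called, BATF2, at 1.02 ± 0.17 (median 0.22), while FOS, FOSL1, JUN and JUNB lay between -0.10 and 0.22.

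**Figure D4:**
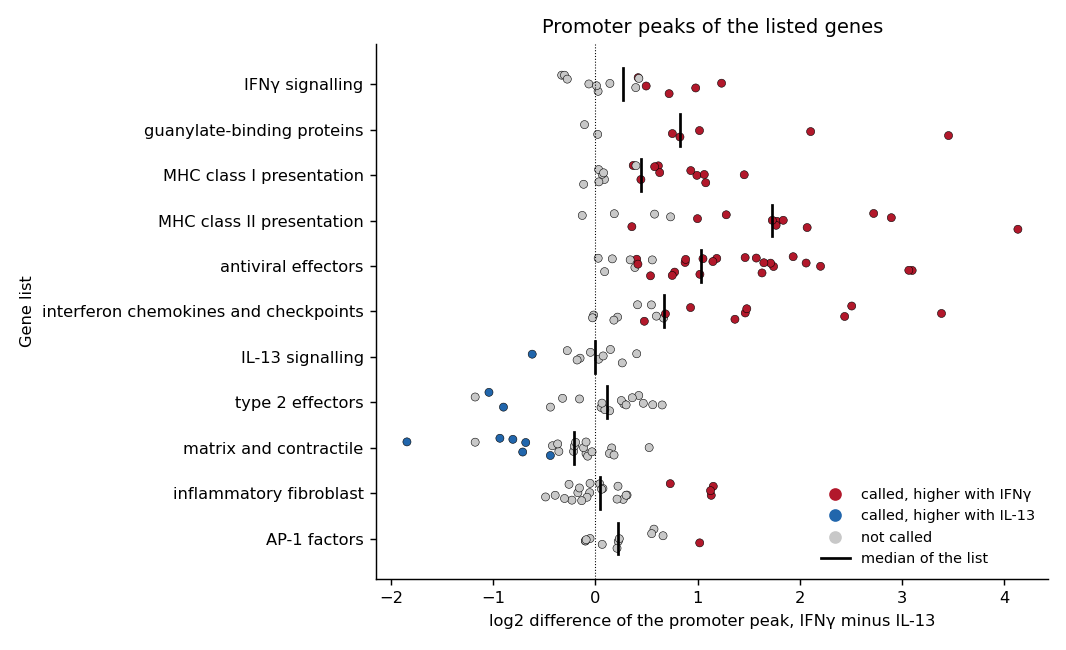
Each point is the promoter peak of a listed gene, placed by its log2 difference, IFNγ minus IL-13 (horizontal), in red or blue where called and in grey where not, with the list median as a black bar. Red points lie among grey ones in the 6 interferon lists, up to 4.14 at CD74, and are few in the inflammatory and AP-1 lists. Blue points lie in the IL-13 signalling, type 2 and matrix lists, with ACTA2 at -1.84 as the lowest. No list holds both colours.

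The unstimulated libraries, which enter the calls only through the shared estimate of the spread, show on which side of the unstimulated level each gap lay. A called peak was placed by where the unstimulated mean lay on the log2 scale between the cytokine means. Of the peaks higher with IFNγ, 45.5% had an unstimulated level in the 33.3% of the gap next to IL-13 or beyond it, 26.3% in the middle and 28.3% in the 33.3% next to IFNγ or beyond. In the first set the median log2 difference from unstimulated was 1.30 with IFNγ and -0.06 with IL-13. In the last, of 3123 peaks, it was 0.10 with IFNγ and -0.89 with IL-13. Sorting by the unstimulated level fixes the side on which such medians fall, and calls against unstimulated were not counted in these sets. Of the peaks higher with IL-13, 45.1% had an unstimulated level near IFNγ, 36.0% in the middle and 18.8% near IL-13. The medians of the first of these sets were 0.86 with IL-13 and -0.10 with IFNγ.

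Motifs differed by direction, and by the side from which the gap arose. Words were searched on both strands of the 500 bases of every tested peak, and a match is a description of the letters only. An ISRE (GAAANNGAAA) was found in 29.8% of the peaks higher with IFNγ, 5.26% of those higher with IL-13 and 9.11% of all. TTC and GAA at a spacing of 4 bases, the STAT6 spacing, were found in 12.8%, 22.4% and 14.4%, and at 3 bases in 20.0%, 18.3% and 17.2%. Spacings of 2 and 5 bases stayed between 14.3% and 16.5% in each of these whole sets. The AP-1 motif (TGANTCA) was found in 43.4%, 29.0% and 25.7%. An NF-κB word (GGGNNTTTCC) was found in 3.52%, 2.67% and 3.70%. The CArG box, added after values had been seen, was found in 2.91%, 9.07% and 3.20%.

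The ISRE and STAT6 shares rose with the size of the difference, and the AP-1 share did not. Among peaks whose coverage averaged 1 per Mb or more, the ISRE share was 6.14% where the difference was within 0.25 of 0 on the log2 scale and 54.6% where it lay between 2 and 3. At the other end the STAT6 spacing was in 30 of the 43 peaks below -2 (69.8%), against 12.1% near 0. In the same 43 peaks a spacing of 5 bases was in 27.9% and of 2 bases in 9.30%, against 12.6% and 13.7% near 0. The AP-1 share was highest, 39.7%, where the difference lay between 1 and 1.5, and was 27.5% between 2 and 3, against 26.0% near 0. The ISRE was also nearer to the peak centre in the IFNγ direction, at a median of 66 bases against 113 in all peaks with the word, and the STAT6 spacing in the IL-13 direction, at 89 against 117. Matches may overlap between words, and the TTC and GAA words share their ends. At promoters the ISRE share was 30.0% with IFNγ higher against 6.63% of all promoter-class peaks, and the CArG share 8.75% with IL-13 higher against 2.25%.

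By the unstimulated level, the motif shares of the peaks higher with IFNγ changed by degrees. Where unstimulated was near IL-13, 47.4% held an ISRE and 32.7% the AP-1 motif. Where it lay in the middle, the shares were 21.6% and 46.7%. Where unstimulated was near IFNγ, so that IL-13 was the lower group, 8.93% held an ISRE and 57.7% the AP-1 motif, beside 8.64% and 28.7% of all peaks whose coverage averaged 1 per Mb or more. The peaks higher with IL-13 held the STAT6 spacing in 27.5% where unstimulated was near IFNγ and in 16.5% where it was near IL-13. Their CArG share was largest, 11.7%, where unstimulated lay in the middle. The loci with the most peaks higher with IL-13 held few of these boxes. The box was in 2 of the 27 called peaks at TPM1, 2 of 17 at COL6A3 and 1 of 18 at TNC. None of the called peaks at COL6A1 or COL1A1 held it.

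**Figure D5:**
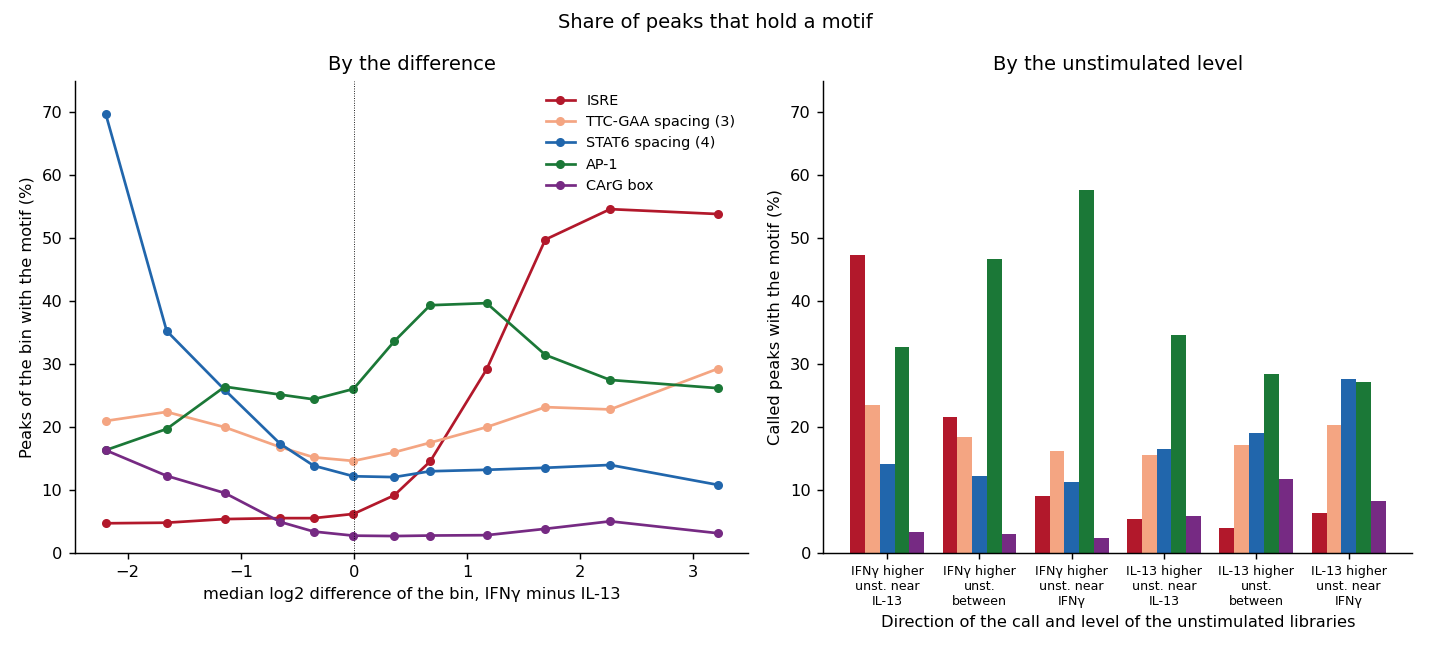
Left, the share of peaks (%) that hold each motif is drawn against the median log2 difference, IFNγ minus IL-13, of 12 bins of peaks whose coverage averaged 1 per Mb or more. Right, bars give the share (%) among called peaks by direction and by the level of the unstimulated (unst.) libraries. The ISRE line climbs to 54.6% on the IFNγ side, the STAT6 line to 69.8% on the IL-13 side, and the AP-1 bar is tallest, 57.7%, where IFNγ is higher and the unstimulated level is near IFNγ.

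Other cytokines, each tested against unstimulated, were read at the same peaks. Their libraries enter the direct comparison only through the shared estimate of the spread. IFNα, the type I interferon, raised 7.11% of the peaks higher with IFNγ (0.513% of all tested peaks) and lowered 4.17% of those higher with IL-13 (0.334% of all). IL-1β, given at 0.1 ng/ml, raised 10.4% of the peaks higher with IFNγ (1.72% of all) and lowered 21.9% of those higher with IL-13 (1.79% of all), where it raised 1.84%. TNF raised 12.7% of the peaks higher with IFNγ (2.67% of all) and lowered 14.6% of those higher with IL-13 (1.69% of all), where it raised 6.03%. TGF-β1, known for inducing matrix and contractile genes, raised 7.83% of the peaks higher with IFNγ and 4.60% of those higher with IL-13 (1.98% of all), and lowered 11.0% of the latter (1.52% of all). Oncostatin M (OSM) raised 6.63% of the peaks higher with IFNγ and 9.35% of those higher with IL-13 (1.55% of all) and lowered 4.29% of the latter (1.29% of all). IL-6 raised 0.75% of the peaks higher with IL-13 (0.0427% of all) and lowered 1.02% of those higher with IFNγ (0.0643% of all). IL-17A (raised 0.0329% and lowered 0.00688% of all) and IL-22 (0.0344% and 0.00221%) were called at no more than 14 of the peaks in either direction. At the peaks higher with IL-13, IFNα, IL-1β, TNF and TGF-β1 thus lowered more than they raised, while OSM and IL-6 raised more than they lowered. For IL-6 these shares rest on 38 raised and 113 lowered peaks. They include the library labelled IL-6 replicate 4 and were not recomputed without it, so they are uncertain.

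These shares are to be read against coverage, since peaks with more coverage are called more often in any contrast. Among all peaks whose coverage averaged 1 per Mb or more, IL-1β lowered 4.22%, TNF 3.81%, TGF-β1 3.64%, OSM 2.12% and IFNα 0.78%. Among the same peaks TNF raised 5.24%, OSM 3.63%, IL-1β 3.43%, TGF-β1 3.32% and IFNα 1.18%. The 6.03% of TNF and the 4.60% of TGF-β1 at peaks higher with IL-13 lay near this background. It has only a lower limit and is not matched to the called peaks. Their median coverage was 3.85 per Mb where IFNγ was higher and 6.26 where IL-13 was higher. All contrasts also share the estimate of the spread of each peak, and their overlap with the direct comparison was not tested.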

How the data were processed

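ATAC-seq libraries of Ccd18-Co colon fibroblasts were analysed from the deposited table. The authors aligned reads to hg38 in the ENCODE ATAC-seq pipeline and called peaks with MACS2. As deposited, the signal is coverage, added up base by base within a peak and not scaled for depth, so it counts the length of reads and not transposase cuts. No source used here says which peak set the table holds, though the methods describe peaks of the same 500-base width called with MACS2 on the study's single-cell data. All peaks fell within the hg38 chromosome lengths. Peaks are given by the deposited coordinates, with the gene and class of the deposited name, and by their overlap with GENCODE v44. Total coverage ran from 240 to 658 Mb over the 8 libraries. The level of 3 reads in each library, the limit below which a level is not told from 0, came to a mean of 0.48 per Mb with IFNγ and 0.64 with IL-13, and such limits cover counting error only.

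Coverage was divided by the total in Mb and by a scaling factor for composition (log ratios averaged after trimming 30% of the ratios and 5% of the means), a pseudocount of 0.5 was added and log2 was taken, so fold changes of low peaks are understated. Peaks with a log2 mean coverage of -3 or below were left out (209). All 44 libraries were fitted with group as the only term (limma 3.58.1, R 4.3.3, eBayes with a trend), because coverage is not a count and the study's methods name no block, and Benjamini-Hochberg adjustment ran over all tested peaks. Single values per library were compared by exact permutation (scipy). Motifs and printed sequences were read from hg38.

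Named were, per direction, the 10 called peaks with the largest difference where coverage averaged 1 per Mb or more and libraries did not overlap (1 per gene name), the 5 gene names with the most called peaks, and from each list the 3 largest called promoters, besides receptors, STAT genes, CIITA, CCL26, POSTN and PTGS2. Some items that the rule names are not reported here, and a few further genes were named after their values were seen. The comparison, lists and tests were chosen with earlier results of these data known. Of 192 listed genes, all with a GENCODE start site, 181 had a promoter peak, and WARS1 and CCN2 were found in the table under older symbols.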

Additional observations from a re-analysis of the deposited data

Results flagged for a closer look

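Of 124 sets of 4 libraries examined, 6 had 1 library whose gap to the nearest other was a large part of the set's range, where chance gives about 1 in 20. At the GBP4 promoter IFNγ replicate 1 was lowest, at 3.50 per Mb against 4.69 for the next. At the IL13RA1 promoter IFNγ replicate 1 was highest, at 12.9 against 10.1, and the peak was not called. At the IPO7 peak IL-13 replicate 2 was highest, at 0.62 against 0.58, a gap far below the level of 3 reads. At the POSTN promoter IL-13 replicate 2 was highest, at 4.18 against 2.51. At the STAT2 promoter IL-13 replicate 1 was highest, at 69.4 against 65.9, and the peak was not called. Total coverage of IFNγ replicate 2 was highest, at 658 Mb against 453 Mb for the next IFNγ library.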

How the results depend on the processing

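Over 22 alternatives the number of called peaks ran from 11899 to 18217, of which IFNγ-higher peaks made up between 59.1% (GC correction, 8537 of 14449) and 71.7%. Leaving out 1 of the 8 libraries gave 11899 (without IFNγ replicate 4) to 14558 calls, 8472 to 10438 of them higher with IFNγ and 3427 to 4389 higher with IL-13. The count of peaks that differ by at least 2-fold fell from 9503 to 2601 with a pseudocount of 2, which shrinks every difference by construction. With the replicate number as a block there were 16307 calls, but replicates that share a number did not deviate together (Pearson's r from -0.01 to 0.00 over peaks), so the numbers do not pair the samples. Of 59 named peaks 7 changed their call under some alternative (CIITA, CISH, CCL11, CSF3, ERAP2, IRF8 and POSTN, given above). No called peak reversed, and 5 that were never called changed sign (JAK1, IL4R, IL13RA1, PTGS2 and STAT2). When only peaks of at least 2-fold difference were read, the ISRE share with IFNγ higher rose to 36.6% and the STAT6 share with IL-13 higher to 28.5%, while the AP-1 share fell to 37.0% and 25.9%. Over all called peaks, whatever their size, the middle 200 bases held the ISRE in 19.0% with IFNγ higher. They held the STAT6 spacing in 12.1% with IL-13 higher, beside 3.82% and 5.78% of all tested peaks for these motifs. Without the library labelled IL-6 replicate 4, which enters the direct comparison only through the shared estimate of the spread, there were 18217 calls. Depth limits peaks near the level of 3 reads, most of all after IL-13.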

Other observations

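Some gene names held called peaks of both directions. Of 6255 gene names with a peak higher with IFNγ and 3325 with a peak higher with IL-13, 1546 had both. Among those with the most in the rarer direction were ZFP36L1, an RNA-binding protein that destabilises mRNA, with 9 and 8 of 309 peaks, EXT1, an enzyme of heparan sulfate synthesis, with 7 and 7 of 206, and THBS1, thrombospondin 1, with 6 and 6 of 132, although the THBS1 promoter was not called (log2 difference -0.03 ± 0.12, SE). Names with many peaks hold both directions more readily, and the 2.91% and 2.59% of ZFP36L1 compare with 2.71% and 1.24% of all tested peaks. CDC42EP3, an effector of the GTPase CDC42, had 4 and 10 of 108. These genes were picked after their values were seen.

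By deposited class, 72.8% of the calls at distal peaks were higher with IFNγ, against 67.5% at intronic, 59.7% at exonic and 60.4% at promoter-class peaks. The share of all tested peaks that were higher with IL-13 was 1.13% at distal and 1.30% at promoter-class peaks, while the share higher with IFNγ was 3.02% and 1.97%.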
